A study of Mus musculus with 10 samples.

Results

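Chromosome contacts of mouse embryonic stem cells lacking the enhancer called E2 (E2-KO) were set against those of unedited cells (WT). The comparison rests on 4 exo-Hi-C libraries, 2 of E2-KO and 2 of WT, out of 10 libraries in 5 genotypes, and its members were taken from the genotype labels alone. All groups share the line ES-E14TG2a, grown without feeder cells on gelatin in serum medium with LIF and inhibitors of GSK3b and MEK, and the genotype is the difference that the labels name. The labels give neither the position of E2 nor how it was deleted, and they do not say whether replicates are separate clones or cultures, so a p-value here covers the spread between deposited libraries, which may be technical. Exo-Hi-C adds an exonuclease digestion after ligation to standard Hi-C. The labels name the exonuclease mixes LRC and LIC without giving the mix of a library. The titles of WT replicate 1 and both E2-KO libraries begin with w326, that of WT replicate 2 does not.

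Hi-C counts how often pairs of genome positions lie close together in the nucleus. Topologically associating domains (TADs) are stretches whose sequences contact each other more than they contact their surroundings, and many end at sites bound by the insulator protein CTCF and cohesin. Enhancers are regulatory sequences that can act on promoters at a distance, often within the same TAD, which is why the loss of an enhancer is followed by maps of contacts. A pair of bins is called "listed" below where the deposited list of that library holds it, with an adjusted p of at most 0.01, and pairs under 2 Mb apart are called short. Positions are in mm9, and as no gene table of that build was used here, regions are named by position alone.

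The E2-KO libraries were the shallower ones. Depth was read from the lists themselves as the number of reads expected by their authors' model for an average pair of 10 kb bins 1 Mb apart. It was 0.191 in WT replicate 1 and 0.207 in WT replicate 2, but 0.0147 in E2-KO replicate 1 and 0.0835 in E2-KO replicate 2. The first E2-KO library thus had 12.9 times less expected contact than WT replicate 1, and the second 2.28 times less. A listed pair rested on few reads, with a median over short pairs of 15 and 11 reads in WT and of 8 and 12 reads in E2-KO. The list of WT replicate 2 starts at a distance of 90 kb, while the other lists start at 20 kb, and it was printed in both orientations; whether its expected contact is affected by that was not tested. Because lists of unequal depth differ in length, TADs and pairs are given both for the full lists and for lists of equal length, the 2878 best-scoring TADs and the 466 pairs of smallest p of each library, below called best lists.

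E2-KO cells had more and shorter TADs in the deposited lists than WT cells. The lists held 2878 and 3548 TADs in WT and 7962 and 4215 in E2-KO. The groups did not overlap, and E2-KO replicate 1 stood far above the other libraries. Mean numbers were 3213 ± 474 in WT and 6088.5 ± 2650 in E2-KO (SD, n = 2 each), a ratio of geometric means of 1.81 or 0.86 on the log2 scale. An exact two-sided permutation test gave p = 0.333, the smallest value that 2 libraries against 2 can give, so no comparison of this size can pass 0.05. Median TAD length was 250 and 210 kb in WT and 90 and 150 kb in E2-KO, a log2 difference of -0.98 (exact permutation p = 0.333). In the best lists the medians were 250, 230, 90 and 170 kb in the same order, so the shorter TADs of E2-KO were not limited to its lower-scoring calls. Without E2-KO replicate 1 the log2 differences were 0.40 for the number and -0.61 for the median length of TADs.

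The shift lay at both ends of the length range. TADs under 100 kb made up 11.6% and 17.6% of the WT lists and 51.8% and 29.9% of the E2-KO lists. TADs of 1 Mb and longer numbered 173 and 179 in WT, 19 in E2-KO replicate 1 and 152 in E2-KO replicate 2. Both E2-KO libraries thus had a larger share of TADs under 100 kb and fewer TADs of 1 Mb and longer than either WT library, and replicate 1 was the further from WT in both classes. The TADs together covered similar lengths of genome, 1028 and 1143 Mb in WT and 1045 and 1097 Mb in E2-KO.

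**Figure D1:**
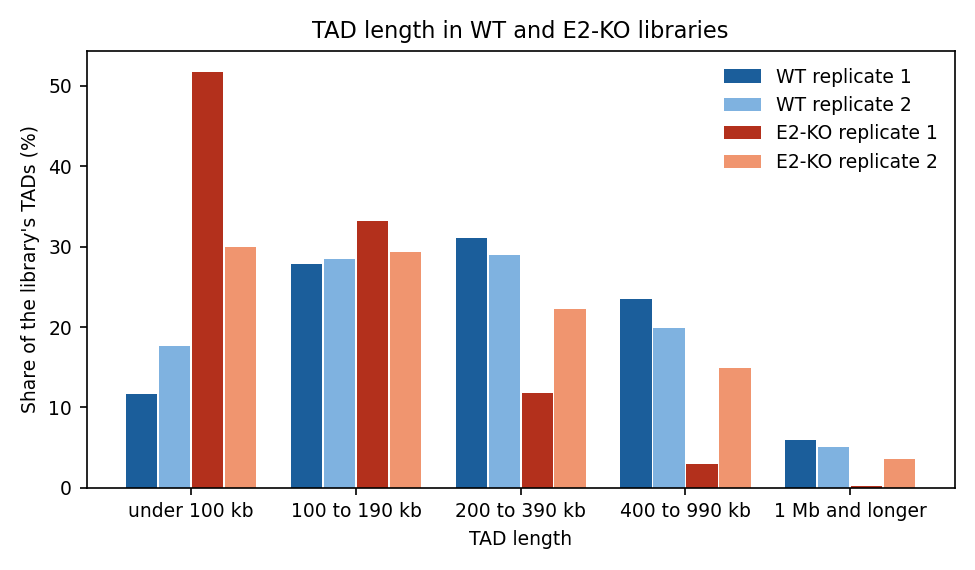
Share of the TADs of each library (vertical axis, percent of the full list) in 5 classes of TAD length (horizontal axis), with 1 bar for each WT and E2-KO library. TADs under 100 kb make up 51.8% and 29.9% of the E2-KO lists against 11.6% and 17.6% of the WT lists.

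The excess was spread over the genome. Both E2-KO libraries had more TADs than either WT library on 20 of 20 chromosomes, Y left out (100% of those compared), from a ratio of mean numbers of 1.60 on chromosome 11 to 2.20 on chromosome 14, with a median of 1.85. Chromosome Y had 0 and 2 TADs in WT and 2 and 1 in E2-KO. The excess also went along with depth in the whole series: the 4 libraries of lowest expected contact had the 4 highest numbers of TADs, in the same order. E1&E3-dKO replicate 2, at 0.0689 expected contacts, had 4871 TADs and E3-KO replicate 2, at 0.0721, had 4859, both more than the 4215 of E2-KO replicate 2 at 0.0835. Genotype and depth cannot be told apart for the number and length of TADs in these 4 libraries.

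**Figure D2:**
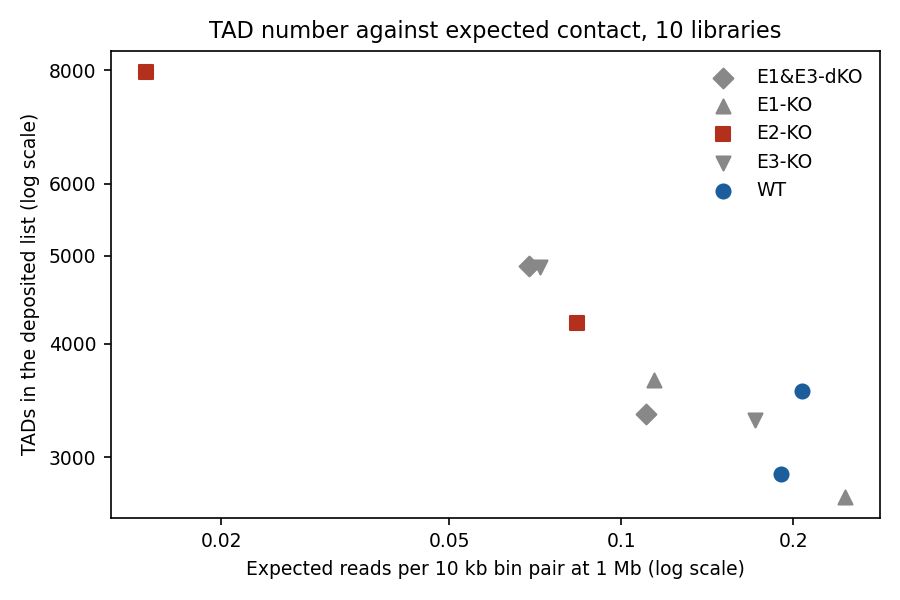
Number of TADs in each of the 10 deposited lists (vertical axis, log scale) against the expected reads per pair of 10 kb bins at 1 Mb (horizontal axis, log scale), 1 point for each library, with WT in blue, E2-KO in red and the other genotypes in grey. E2-KO replicate 1 stands alone at 0.0147 expected reads and 7962 TADs, and E2-KO replicate 2, at 4215 TADs, lies among the shallower libraries of the other genotypes.

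To follow WT TADs into E2-KO cells, 1646 TADs shared by both WT libraries were taken from the best lists (reciprocal overlap of at least 80%). In both E2-KO libraries 194 of them were kept, that is, overlapped by a TAD at 80% in both directions (11.8%). A TAD was split when at least 2 E2-KO TADs lay within it and covered at least 50% of it, and merged when an E2-KO TAD took it in together with another WT TAD. By these definitions 1 was split in both libraries (0.0608%) and 1 was merged in both (0.0608%). A further 392 were uncovered in both, which means that E2-KO TADs overlapped less than 50% of their length (23.8%). The libraries differed widely: replicate 1 kept 14.2% of the WT TADs and left 79.7% uncovered, replicate 2 kept 64.8% and left 26.9% uncovered. The best list of replicate 1 covers 362 Mb in all, against 822 Mb for replicate 2, and WT replicate 1 covers 1028 Mb. Extended in both, by an E2-KO TAD that took in a single WT TAD and more, were 7 (0.425%), and 5 were overlapped in some other way in both (0.304%).

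With the full lists, 1783 TADs were shared by the WT libraries. E2-KO replicate 1 kept 511 of them (28.7%), replicate 2 kept 1269 (71.2%), and both kept 421 (23.6%). At least 1 E2-KO library kept 1359 (76.2%), so 424 (23.8%) were found in neither. Splits numbered 113 in replicate 1 (6.34%) and 19 in replicate 2 (1.07%), of which 2 coincided (0.112%). Merges numbered 9 and 13, and the merged TAD common to both was the only one (0.0561%). Uncovered in both were 181 (10.2%), extended in both 13 (0.729%) and overlapped in some other way in both 14 (0.785%). WT TADs without cover were thus more numerous than split ones in both E2-KO libraries, as they also were between the WT libraries.

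The same bookkeeping between WT libraries gives the level that replicates alone reach. Of the TADs of WT replicate 1, WT replicate 2 kept 62.0%, E2-KO replicate 2 kept 55.9% and E2-KO replicate 1 kept 24.0%. WT replicate 2 split 0.66% of them, E2-KO replicate 2 split 1.56% and E2-KO replicate 1 split 6.39%. WT replicate 2 left 22.3% of them uncovered. In both measures E2-KO replicate 2 lay nearer to WT replicate 2 than to E2-KO replicate 1. The E2-KO libraries were also unlike each other: of the 7962 TADs of replicate 1, 801 (10.1%) were kept in replicate 2, while 745 (9.36%) were kept in WT replicate 2. By position, TADs of E2-KO replicate 1 took in 48.3% of the sequence inside TADs of WT replicate 1 while covering 41.1% of the genome spanned by TADs, against 73.9% and 43.2% for E2-KO replicate 2.

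Libraries of the other genotypes give a second scale, since they were set against the same 1783 WT TADs. They kept between 58.3% (E1&E3-dKO replicate 2) and 80.7% (E3-KO replicate 1). They left between 11.8% and 27.3% uncovered, a range that takes in the 17.7% of E2-KO replicate 2 but not the 49.5% of E2-KO replicate 1. E3-KO replicate 2, a little shallower than E2-KO replicate 2, kept 65.8% and split 1.57%. The 71.2% and 1.07% of E2-KO replicate 2 lay within that range, and the 28.7% and 6.34% of E2-KO replicate 1 lay outside it, as did its depth. Among the 424 WT TADs kept in neither E2-KO library, 29 (6.84%) were kept in all 6 libraries of the other genotypes, against 211 of the 421 kept in both E2-KO libraries (50.1%). Over all 1783 WT TADs, 533 (29.9%) were kept in all 6.

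Long WT TADs fared differently from short ones in E2-KO replicate 1. Of 126 WT TADs of 1 Mb and longer, it kept 9 (7.14%), split 15 (11.9%) and left 101 uncovered (80.2%). Of 448 WT TADs of 100 to under 200 kb, it kept 150 (33.5%), split 1 (0.223%) and left 180 uncovered (40.2%). Of the other classes it split 62 of 507 TADs of 400 kb to under 1 Mb (12.2%) and 35 of 622 of 200 to under 400 kb (5.63%), and none of 80 under 100 kb. As the shortest TAD listed is 60 kb, a TAD under 100 kb cannot be split by this definition and one of 100 to under 200 kb hardly can, so the low shares of the short classes are largely set by the definition. E2-KO replicate 2 kept 86 of the longest TADs (68.3%), 470 of those of 200 to under 400 kb (75.6%) and 39 of those under 100 kb (48.8%), so its least kept class was the shortest. It split 5 of the longest TADs (3.97%), 10 of 400 kb to under 1 Mb (1.97%) and 4 of 200 to under 400 kb (0.643%). In other genotypes, E3-KO replicate 2 kept 46.8% of the longest TADs and split 5.56%, and E1&E3-dKO replicate 2 kept 53.2% and split 3.97%. The remaining libraries of other genotypes kept 82.5% to 88.1% of them. A lower share kept among the longest TADs was thus not particular to E2-KO.

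**Figure D3:**
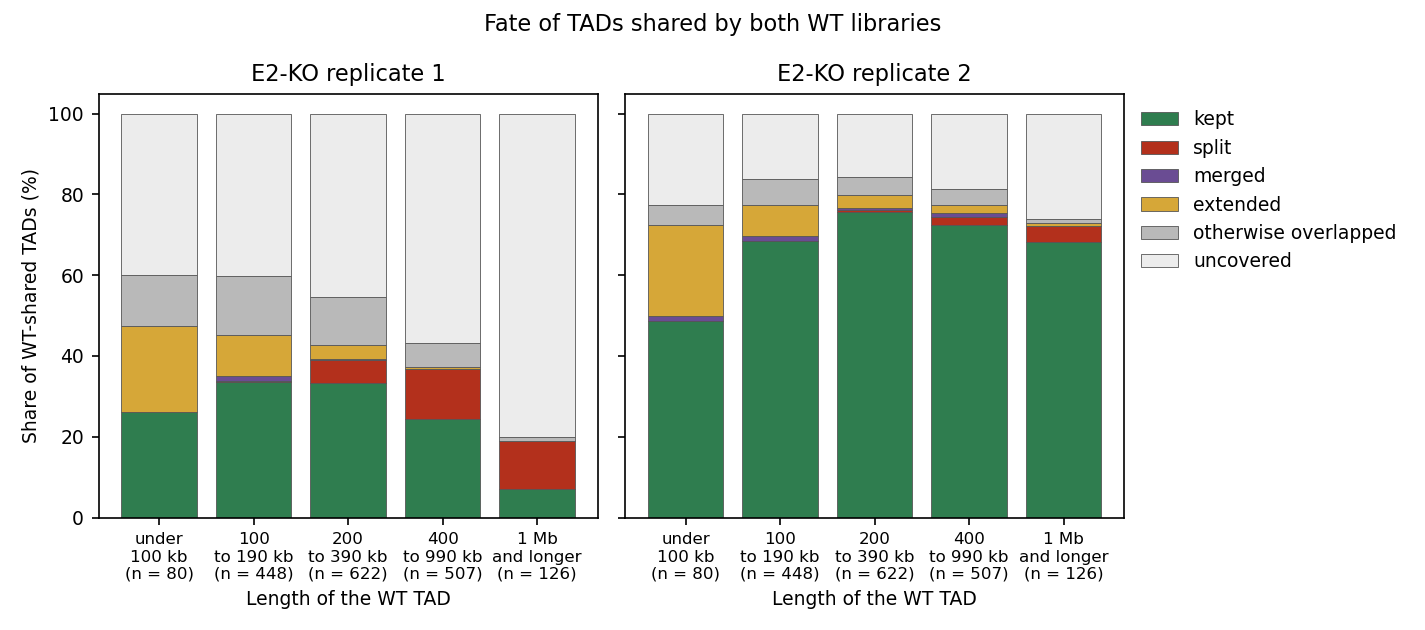
Share of the 1783 TADs shared by both WT libraries (vertical axis, percent, full lists) that were kept, split, merged, extended, otherwise overlapped or uncovered in each E2-KO library, by length of the WT TAD (horizontal axis, number of TADs in brackets). Replicate 1 keeps 7.14% of TADs of 1 Mb and longer and leaves 80.2% uncovered, and replicate 2 keeps 68.3% of them.

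By chromosome, in the full lists, the share of WT TADs kept in both E2-KO libraries had a median of 23.1% over 20 chromosomes. It was highest on chromosome 17, at 34.2%, and lowest on chromosome X, at 9.09%, where 50% were kept in neither library. In the best lists chromosome 17 was again highest, at 21.1%, but chromosome 8 was lowest, at 5.68%, with 7.69% on X. There the lowest share kept by replicate 1 was on chromosome 8 (6.82%, X 10.8%), and by replicate 2 on X (44.6%). The values that follow are of full lists. Chromosome X stood apart between the WT libraries too: WT replicate 2 kept 31.3% of the X TADs of WT replicate 1, against 53.8% on the next lowest chromosome, 7. E2-KO replicate 2 kept 26.5% of them and replicate 1 6.64%. X was thus the chromosome with the lowest share kept in each of these comparisons of full lists, that between the WT libraries included. Among TADs shared by both WT libraries, E2-KO replicate 2 kept 47.0% on X against a median of 72.9%, and replicate 1 kept 12.1% against 28.9%. Splits in E2-KO replicate 1 ranged from 2.48% on chromosome 11 to 12.1% on chromosome X.

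WT TADs split in both E2-KO libraries were the following. The TAD at 16.54 to 18.19 Mb of chromosome 12, 1650 kb long, had scores of 2.08 and 2.00 in WT, the score being that of the deposited list. It held 7 TADs in E2-KO replicate 1 and 5 in replicate 2, and both put boundaries near 16.81, 17.02, 17.61 and 17.82 Mb (within 25 kb). The inner arrangement was thus shared in part between the E2-KO libraries. Replicate 1 also had TAD ends at 16.66, 17.33, 17.42 and 17.48 Mb without a partner in replicate 2. Replicate 2 had ends at 16.72 and 17.28 Mb without a partner in replicate 1. The first of the shared boundaries, the only one looked up in other genotypes, was found in 2 of their 6 libraries. The TAD at 102.27 to 103.4 Mb of chromosome X, 1130 kb long with WT scores of 1.78 and 1.80, held 4 and 3 inner TADs with no shared inner boundary. It was also the only TAD split in both best lists. Of the 113 TADs split in replicate 1, 30 (26.5%) had an inner boundary that replicate 2 shared. Of the 19 split in replicate 2, 12 (63.2%) had one that replicate 1 shared. A WT library shared one for 11 (9.73%) and 1 (5.26%) of them, but these TADs were chosen as whole in both WT lists. A match with replicate 1 is also easier, as it lists 7962 TADs. The share of matches that boundary density alone would give was not computed, so these shares do not show agreement between the E2-KO libraries.

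The merged TAD was at 32.5 to 32.63 Mb of chromosome 16, 130 kb long with WT scores of 1.71 and 1.98. E2-KO replicate 1 had a TAD at 32.49 to 32.7 Mb there and replicate 2 one at 32.49 to 32.69 Mb, so the joined TADs were 210 and 200 kb long and ended within 1 bin of each other.

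TADs kept in both E2-KO libraries were those with higher WT scores. Their median score in WT was 1.82 and 1.90, against 1.62 and 1.70 for TADs kept in neither. In E2-KO, the 421 kept TADs had median scores of 2.16 in replicate 1 and 1.85 in replicate 2. Over the full lists the median score was 1.67 and 1.70 in WT, 2.05 in E2-KO replicate 1 and 1.69 in replicate 2. Scores of replicate 1 were thus higher over its whole list, not at kept TADs alone. Scores above both WT scores were found in both E2-KO libraries for 138 of them (32.8%), in replicate 1 for 341 (81.0%) and in replicate 2 for 159 (37.8%), so scores above WT were found at most kept TADs in replicate 1 and at a minority in replicate 2.

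At the places ranked highest the score was above both WT scores in both E2-KO libraries, by far more in replicate 1 than in replicate 2. The TAD at 19.97 to 20.34 Mb of chromosome 12 scored 2.81 and 2.92 in WT, 16.5 in E2-KO replicate 1 and 4.52 in replicate 2. The one at 117.64 to 117.74 Mb of chromosome 10 scored 2.33 and 2.81 in WT, 16.3 and 3.81 in E2-KO. The one at 65.61 to 65.78 Mb of chromosome 13 scored 2.72 and 2.97 in WT, 9.56 and 5.94 in E2-KO. These 3 places were TADs in all 6 libraries of other genotypes too, so they are widely shared domains with a higher score in E2-KO rather than domains of E2-KO. The TADs at 143.18 to 143.51 Mb of chromosome 4 (2.01 and 2.37 in WT, 11.7 and 3.64 in E2-KO) and at 115.17 to 115.29 Mb of chromosome 12 (2.51 and 2.48 in WT, 10.1 and 4.44 in E2-KO) completed the top 5. They were ranked by their mean E2-KO score, so their height in E2-KO is a description.

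Read in the other direction, the E2-KO libraries shared 801 TADs, of which 405 (50.6%) were kept in both WT libraries and 234 (29.2%) in neither. Of the shared TADs, 44 (5.49%) lay inside a longer TAD in both WT libraries. The strongest was at 68.43 to 68.54 Mb of chromosome 13, with scores of 21.3 and 9.83 in E2-KO, the highest of either list. In WT the same place was part of a 520 kb TAD at 68.09 to 68.61 Mb, with scores of 2.86 and 3.02. This inner TAD was not particular to E2-KO, as 5 of the 6 libraries of other genotypes held it. The next were at 17.25 to 17.32 Mb of chromosome 7 (9.19 and 2.31, inside WT TADs of 1780 and 1580 kb) and at 39.67 to 39.81 Mb of chromosome 17 (5.15 and 2.31, inside WT TADs of 1320 and 1340 kb). Each of these was held by 1 of the other 6 libraries. The TAD at 144.98 to 145.19 Mb of chromosome 4 (4.60 and 2.36, inside an 850 kb WT TAD) was held by none of them.

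Short interactions were more numerous in E2-KO. Full lists held 357 and 43 short pairs in WT and 939 and 527 in E2-KO. At equal list length, 182 and 43 of the 466 best pairs were short in WT and 347 and 300 in E2-KO. The groups did not overlap in either form. Mean numbers in the best lists were 112.5 ± 98.3 in WT and 323.5 ± 33.2 in E2-KO (SD, n = 2 each), a log2 difference of 1.85 on numbers plus 1 (ratio 3.61, exact permutation p = 0.333, the smallest possible). In the full lists the difference was 2.49. Without WT replicate 1 the difference in best lists was 2.88. Without WT replicate 2, which has the shortest list, lists were matched at 1050 pairs instead of 466, and the difference was 0.89.

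Among the 4 shallowest libraries, the number of short pairs did not follow the order of depth as the number of TADs did. E2-KO replicate 1, the shallowest, had the most short pairs of the series, 939. WT replicate 2, at 0.207 expected contacts, had the fewest, 43, in a list that starts at 90 kb. E1-KO replicate 1, the deepest library, had 787, the second most after E2-KO replicate 1, while E3-KO replicate 2 and E1&E3-dKO replicate 2, of similar depth to E2-KO replicate 2, had 287 and 342. A part of depth in the short pairs of E2-KO was not tested, and both E2-KO libraries are shallower than both WT libraries.

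The E2-KO libraries had many short pairs in common. Over the 4 best lists there were 610 distinct short pairs, and 253 of them were held by both E2-KO libraries (41.5%), a pair being held by a library where that library lists a pair with both ends within 1 bin. The distinct pairs are those that any of the libraries listed, so the number held by a library can exceed the number it lists. Of these 253, 139 were held in neither WT library and are called gained (22.8% of the distinct pairs), and 3 pairs were held in both WT libraries but in neither E2-KO library, called lost (0.492%). Over the full lists there were 1396 distinct pairs, with 550 in both E2-KO libraries (39.4%), 358 gained (25.6%) and 2 lost (0.143%). Of the 527 short pairs that E2-KO replicate 2 listed, replicate 1, the shallowest library, held 403 (76.5%), and of the 939 that replicate 1 listed, replicate 2 held 475 (50.6%). Of the 357 that WT replicate 1 listed, WT replicate 2 held 39 (10.9%), and of the 43 that WT replicate 2 listed, WT replicate 1 held 33 (76.7%).

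The imbalance of gained over lost rests in part on WT replicate 2. A lost pair has to be in its list of 43 short pairs, and 77 of the 358 gained pairs were under 90 kb, where it lists none. Without WT replicate 2, when all 3 libraries left have w326 titles, best lists gave 301 gained and 209 lost pairs, and full lists 371 and 244. Best lists without E2-KO replicate 2 gave 258 gained and 10 lost pairs, and without WT replicate 1 they gave 198 and 8. The other 281 of the 358 gained pairs span at least 90 kb. A pair that a WT list lacks is a pair below its limit, and its WT reads are not known.

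The other knockouts, compared with the same WT libraries in full lists, had 36 gained pairs in E1-KO (3.18%), 25 in E3-KO (3.57%) and 19 in E1&E3-dKO (2.76%), beside the 358 in E2-KO (25.6%). A gained pair has to be held by both libraries, and these lists were not matched in length. The library with fewer short pairs listed 207, 228 and 108 in these genotypes, against 527 in E2-KO. Both libraries held 147, 124 and 96 pairs, against 550 in E2-KO. Of the 358, 127 (35.5%) were held by none of the 6 libraries of these genotypes, and 3 by all. E3-KO replicate 2, the only other library with a w326 title, held 159 (44.4%), the most of the 6, and E1&E3-dKO replicate 1 held the fewest, 33 (9.22%).

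The pairs held by both E2-KO libraries were unevenly spread over chromosomes. Chromosomes 12, 4, 13 and 7 had 84, 75, 74 and 59 of the 550, and chromosomes 6, 8, 14 and 17 had 45, 40, 35 and 27. Chromosomes 16 and 19 had none, and chromosome 11 had 3. Per Mb spanned by TADs, chromosome 12 had 0.72 and chromosome 11 had 0.0253. WT replicate 1 listed most short pairs on chromosomes 6, 4, 8, 12 and 13 (38, 33, 29, 28 and 26). WT replicate 2 listed most on chromosomes 4, 13, 6 and 8 (11, 7, 6 and 5). These chromosomes are all among those named for E2-KO, so the uneven spread was largely shared with WT. Chromosome 11 differed, with 24 short pairs in WT replicate 1, 0 in WT replicate 2 and 9 and 3 in the E2-KO libraries. Gained pairs led on chromosome 13 (54 of 74), chromosome 12 (46 of 84) and chromosome 7 (39 of 59), while on chromosome 4 fewer than those also in WT were gained (33 of 75).

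**Figure D4:**
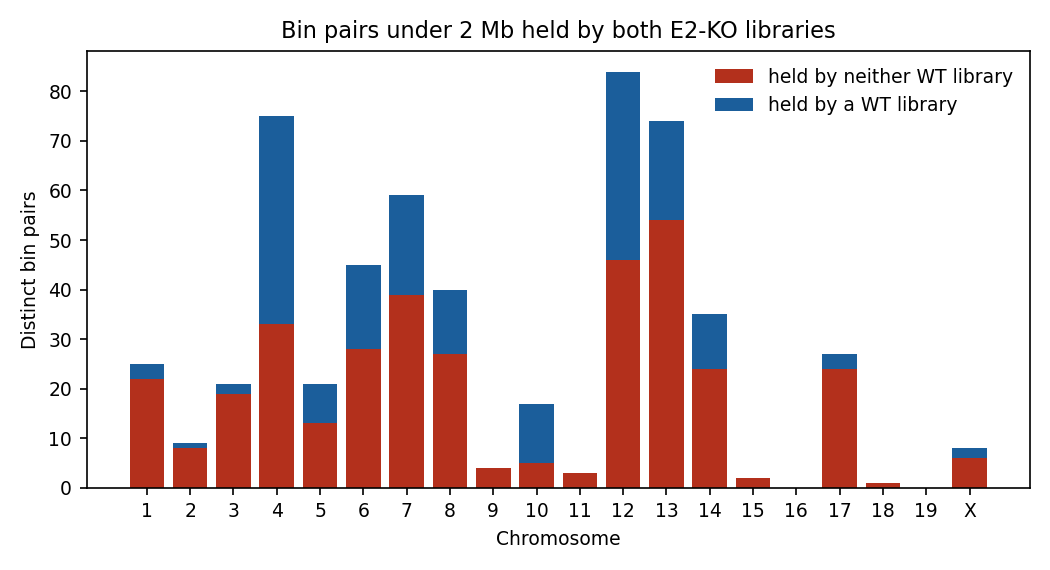
Number of distinct bin pairs under 2 Mb held by both E2-KO libraries within 1 bin (vertical axis, full lists) on each chromosome (horizontal axis), divided into pairs held by neither WT library (red) and by at least 1 WT library (blue). Chromosomes 12, 4, 13 and 7 carry 84, 75, 74 and 59 pairs, and chromosomes 16 and 19 carry none.

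Within chromosomes the pairs were clustered. Counted in pairs of 1 Mb windows they fell into 120 regions, and the 13 with at least 12 pairs (ties with the tenth included) held 222 of the 550 (40.4%), on 7 chromosomes. These regions were picked by their number of pairs in E2-KO, so their values are given without a test; the next region had 11. At 130.035 to 130.965 Mb of chromosome 6, the lists held 12 and 6 pairs in WT and 29 and 24 in E2-KO. At 143.355 to 143.955 Mb of chromosome 4 they held 4 and 2 pairs in WT and 24 and 15 in E2-KO. The libraries of other genotypes held 8 to 13 pairs in the first of these regions and 0 to 12 in the second, below both E2-KO libraries in each.

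On chromosome 12, between 20.335 and 21.925 Mb, the lists held 3 and 1 pairs in WT and 26 and 11 in E2-KO, at a median distance of 1420 kb. The gained pair of smallest p there joined 20.375 and 21.885 Mb with 12 and 15 reads in E2-KO, where 0.00643 and 0.0168 reads were expected. No other genotype held it. On chromosome 4, between 145.055 and 146.945 Mb, there were 7 and 7 pairs in WT and 23 in each E2-KO library, and the best gained pair joined 145.455 and 146.685 Mb with 22 and 24 reads. These pairs lay at distances where few reads were expected in any library, and the list of WT replicate 1 would have needed 5 reads for the first and 6 for the second.

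In 2 of the regions WT had no pair at all. At 24.265 to 24.655 Mb of chromosome 7, E2-KO replicate 1 listed 20 pairs and replicate 2 listed 13, and all 18 pairs held by both were gained. The libraries of other genotypes listed 1 to 7 there, so the region was not silent outside E2-KO. At 22.225 to 22.815 Mb of chromosome 8, E2-KO listed 16 and 7 pairs, all 12 held by both were gained, and the best, from 22.355 to 22.795 Mb, had 31 and 29 reads. No library of another genotype held that pair, and the nearest WT pair lay 3150 kb away. The libraries of other genotypes listed 0 to 4 pairs in this region, so it was not empty in all of them.

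Other regions had WT pairs and more of them in E2-KO. The region at 73.655 to 74.385 Mb of chromosome 8 had 10 and 5 in WT and 18 in each E2-KO library, and 5 of 18 were gained. At 68.095 to 68.705 Mb of chromosome 13, around the inner TAD of highest score, there were 4 and 3 in WT and 14 and 16 in E2-KO. The best gained pair there, 68.445 to 68.525 Mb, joined bins near both ends of that TAD with 20 and 30 reads, and all 6 libraries of other genotypes held it. The region at 66.035 to 66.955 Mb of the same chromosome had 4 and 3 in WT and 27 and 11 in E2-KO. At 53.305 to 54.125 Mb of chromosome 14 there were 2 and 0 in WT and 16 and 9 in E2-KO, and the best gained pair, 700 kb long, had 28 and 21 reads.

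The remaining regions repeated this pattern. Chromosome 12 had one at 115.185 to 115.785 Mb, with 3 and 0 pairs in WT and 12 and 10 in E2-KO, around the kept TAD of raised score named above. It had another at 116.305 to 116.995 Mb, with 5 and 1 in WT and 16 and 13 in E2-KO. The last, on chromosome 4 from 145.095 to 147.175 Mb, had 4 and 0 in WT and 12 and 11 in E2-KO, at a median distance of 1935 kb. Chromosome 4 thus held 3 of the 13 regions, and chromosome 12 held 3 as well.

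Of the 358 gained pairs, 79 (22.1%) had a WT pair with both ends within 50 kb, and 128 (35.8%) had none within 1 Mb. A gained pair has by definition no WT pair with both ends within 1 bin, and the WT lists of short pairs are shorter. These shares are thus partly set in advance and are given as a description. By distance, 86 of the 106 pairs under 100 kb held by both E2-KO libraries were gained (81.1%), 66 of 94 at 100 to under 200 kb (70.2%), 104 of 178 at 200 to under 500 kb (58.4%), 54 of 97 at 0.5 to under 1 Mb (55.7%) and 48 of 75 at 1 to under 2 Mb (64.0%). The shortest class had the highest share, and it is also the one that the list of WT replicate 2 barely covers.

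Reads can be compared directly only at pairs that all libraries hold, which are pairs that passed the limit of each list. At the 62 short pairs held by all 4 libraries, the median was 16 and 12 reads in WT and 25 and 29 in E2-KO, against 0.596 and 0.684 reads expected in WT and 0.0791 and 0.348 in E2-KO. Both E2-KO libraries had more reads than both WT libraries at 44 of the 62 (71%), although fewer were expected at these pairs. Read counts of 5 to 59 in E2-KO replicate 1 and of 5 to 36 in WT replicate 1 overlapped over most of their range. At the 46 pairs held by all 10 libraries, the medians were 27 and 30.5 reads in E2-KO, 17 and 14 in WT and 11.5 to 24 in the 6 others. E2-KO thus had the highest medians of the series at these pairs.

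**Figure D5:**
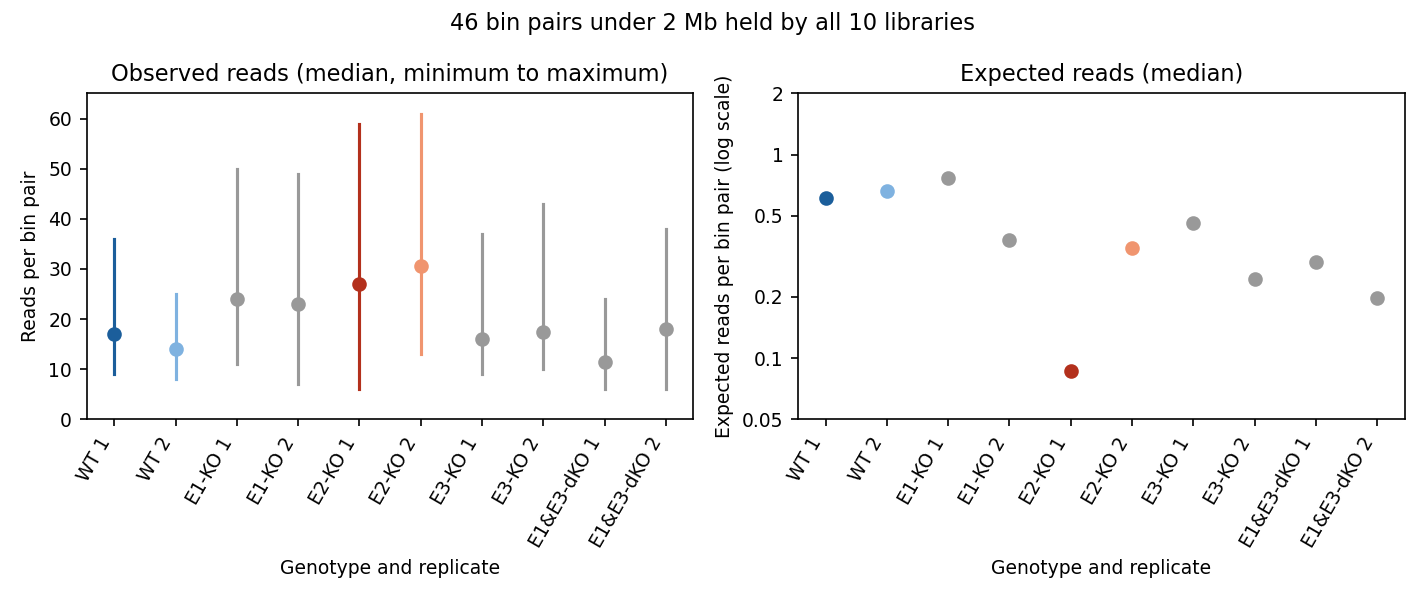
Left, observed reads per bin pair (vertical axis; points are medians, lines run from the minimum to the maximum) at the 46 pairs under 2 Mb held by all 10 libraries, by genotype and replicate (horizontal axis). Right, the median of the reads expected at the same pairs (log scale). E2-KO libraries have the highest median reads, 27 and 30.5, and replicate 1 has the lowest expectation.

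Whether a WT list could have held the gained pairs was asked from the reads. With the expectation of WT replicate 1 at the distance and the bias factors of the E2-KO lists, a gained pair would have needed a median of 11 reads to be listed in WT replicate 1. E2-KO replicate 1 itself had that many at 182 of 358 pairs (50.8%) and replicate 2 at 222 (62.0%). For these pairs the same number of reads in WT would have been listed. At the others the E2-KO reads were below that limit. The need is set high, because at the 178 short pairs held by WT replicate 1 and both E2-KO libraries, the expectation built this way was 1.61 times that of the WT list itself (median), and the WT reads met it at 132 of these pairs (74.2%).

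Short pairs of E2-KO lay at TAD ends less often than those of WT replicate 1, but about as often as those of WT replicate 2. In WT replicate 1, 143 of 357 short pairs (40.1%) joined the ends of one of its own TADs, and 220 (61.6%) lay inside 1 TAD. In E2-KO these were 145 of 939 (15.4%) and 363 (38.7%) in replicate 1 and 93 of 527 (17.6%) and 193 (36.6%) in replicate 2. WT replicate 2, with 7 of 43 (16.3%) and 17 (39.5%), lay near the E2-KO values, so WT replicate 1 stood apart from the other 3 libraries. In the best lists, TAD corners took 33.0% of the short pairs of WT replicate 1, 16.3% of WT replicate 2, and 20.2% and 17.0% in E2-KO. Of the 358 gained pairs, 13 (3.63%) joined the ends of a TAD of WT replicate 1 and 75 (20.9%) lay inside 1 of them. Set against TADs of E2-KO replicate 1, 52 (14.5%) joined ends and 164 (45.8%) lay inside 1 TAD. For TADs of E2-KO replicate 2 these were 60 (16.8%) and 130 (36.3%). Set against E2-KO TADs, gained pairs thus lay near the shares of all short pairs of E2-KO.

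Pairs at TAD corners of WT replicate 1 were seldom found again. Of its 143, E2-KO replicate 1 held 11, E2-KO replicate 2 held 14 and WT replicate 2 held 4. Their reads stood at a median of 8.43 times the expectation. If each pair kept its ratio, 0 of them would reach the limit of the E2-KO replicate 1 list and 1 that of replicate 2. More were held, 11 and 14. Pairs of WT replicate 1 that lay neither inside 1 TAD nor at corners were held by both E2-KO libraries in 50 of 113 cases (44.2%). Their median ratio was 20.3. Of these 113, 0 and 10 would reach the limits of E2-KO replicates 1 and 2, while 56 and 58 were held. As the E2-KO lists held more pairs than an unchanged ratio gives, this reckoning cannot decide whether an absent corner pair is a change.

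Few pairs were lost. The full lists gave 2, both on chromosome 4. The pair of 145.045 and 146.015 Mb had 12 and 10 reads in WT, and the pair of 145.195 and 146.615 Mb had 10 and 8. Both lie within the region at 145.055 to 146.945 Mb, or within 1 bin of it, where E2-KO listed 23 pairs in each library, so single pairs were absent there amid a larger number of others. The best lists added the pair of 66.515 and 66.815 Mb on chromosome 13, with 16 and 14 reads in WT.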

How the data were processed

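Deposited lists of 4 exo-Hi-C libraries were used, 2 WT and 2 E2-KO, with 6 libraries of other genotypes for reference. Per the submitters' processing notes, reads were processed with HiC-Pro 2.10.0 and HOMER on mm9; the tool behind the interaction list and the HOMER version are not given in the sources used here. The deposited interaction lists give an unscaled count of reads per pair of 10 kb bins, a p-value and adjusted p-value from the authors, and a bias factor per bin, a ratio in the deposited file with a median near 1. The deposited TAD lists give a score from the authors, of at least 1.5. Replicates were not pooled. Neither file states the reads of a library.

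Each pair was used once. Expected reads were solved as the mean of a Poisson distribution whose upper tail at the listed count equals the listed p-value, then divided by both bias factors; within a library, pairs of equal distance gave equal values. Definitions of kept, split, merged and gained stand with the results, and the split and merged definitions also require 80% of the contained TAD to lie inside. Libraries were compared by exact two-sided permutation with Python 3.11.15 and SciPy 1.17.1; shares and counts have no test. Scripts were tested on simulated data. Named regions are the 10 pairs of 1 Mb windows with most pairs held by both E2-KO libraries, with ties, the pair of smallest mean p in each, all splits and merges found in both libraries, and the 5 kept TADs of highest mean E2-KO score; the inner TADs of E2-KO and the lost pairs were named after their values were seen. The members and lists were chosen with earlier results of these data known. Alternatives were full or best lists, overlap limits of 50% and 90%, a score of at least 2, an adjusted p of at most 0.001, distance limits of 1 and 5 Mb, the same bin or 3 bins, autosomes only, and each library left out. Gene tables at hand are of another build and were not used.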

Additional observations from a re-analysis of the deposited data

How the results depend on the processing

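Numbers and lengths of TADs and the number of short pairs kept their direction in all 25 alternatives, each with an exact p between 0.333 and 0.667, which cannot pass 0.05 in this design; TADs numbered 0.40 to 1.32 (log2) more in E2-KO with each library left out. Of 1646 WT TADs, 0.0608% were split in both E2-KO libraries, against 0.112% in full lists and 0% with scores of at least 2 or on autosomes. The 139 gained pairs became 358 in full lists and 38 at an adjusted p of 0.001, and the 3 lost pairs became 5 within 5 Mb. With each library left out, TADs kept ranged from 7.24% to 64.8%, split from 0.0695% to 0.668%, merged from 0.113% to 0.486%, gained pairs from 196 to 301 (139 with all 4 libraries), and lost pairs from 3 to 209. The high value of lost pairs is that without WT replicate 2, and the 64.8% is that without E2-KO replicate 1. The low ends of the TAD ranges are from runs without a WT library, which have no TADs shared by both WT libraries. Shares there are of all TADs of the WT list left, 3548 without WT replicate 1 (7.24% kept) and 2878 without WT replicate 2 (8.03% kept). These shares therefore do not show how the result for the 1646 shared TADs depends on a WT library. Recovered expected contact at 1 Mb differed by -2.50 on the log2 scale (E2-KO minus WT), and by -1.25 without E2-KO replicate 1.

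With the replicate number as a block, the log2 differences were 0.86 for the number of TADs, -0.98 for median length and 1.85 for short pairs, each with an exact p of 0.5, the smallest for 2 pairs; deviations of same-numbered libraries over 20 chromosomes correlated at 0.49, but with 2 pairs the numbers show no pairing. Leaving out each library in turn with full lists was chosen after the data were seen. In full lists the gained pairs then ranged from 360 to 768 and the lost pairs from 3 to 244. The depth of E2-KO replicate 1 limits what its lists can show: pairs with the read-to-expected ratio common in WT are below its limit, and a TAD or pair not listed is not shown to be absent.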

Other observations

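Far pairs of the same chromosome were not part of the comparison. In lists of equal length, the 466 pairs of smallest p, those 20 Mb and more apart numbered 156 in WT replicate 1 and 302 in WT replicate 2, but 18 in E2-KO replicate 1 and 38 in E2-KO replicate 2, and the groups did not overlap. Pairs of 2 to under 20 Mb numbered 128, 121, 101 and 128 in the same order, so the libraries differed little at middle distances. In the full lists the far pairs made up 48.6% and 64.8% in WT and 54.4% and 27.3% in E2-KO, where the groups did overlap. The far pairs of E2-KO replicate 1, 1901 in its full list, thus lay almost all outside its best 466. No cause of this was tested.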
